A study of Mus musculus with 28 samples.

Results

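The 4 H3K4me1 libraries of a series of 28 samples of mouse lung tumours were described here, and the 2 libraries with MLL in the name under which they were submitted were set beside the 2 with RAS in that name. The series mapped 6 histone marks by ChIP-seq, that is, by sequencing the DNA that an antibody against one histone modification pulls down. Each mark had 4 libraries with a peak list each, 24 in all, while the 4 samples of input DNA were not used here. The tumours were induced with Ad-CMV-Cre, an adenovirus that delivers Cre recombinase under the CMV promoter, in mice of 2 genotypes. The first is K-RasLSL-G12D, and the second, K-RasLSL-G12D;Mll4fl/fl, adds the Mll4 alleles to it. Both genotypes carry the Cre-activated mutant K-Ras allele, and the Mll4 alleles of the second are floxed, so that Cre deletes them. The labels do not say which sample came from which genotype. The tumour type of each library therefore rests on the submitted names alone, and the libraries are called MLL-named (replicates 1 and 2) and RAS-named (replicates 3 and 4). The material was whole tumour tissue, so cells of the tumour bed are included. A virus with the CMV promoter is not limited to one cell type. The labels do not say whether libraries came from separate animals, and the age and sex of the mice are not given in them.

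H3K4me1, histone H3 with one methyl group on lysine 4, marks enhancers, the distal elements that raise transcription of genes, and also flanks active promoters. MLL4, also called KMT2D, is one of the main enzymes that place this mark at enhancers, where it works with the related MLL3. Enhancers in use also carry H3K27ac, which marks active enhancers and promoters. H3K4me3 lies at promoters, H3K79me2 along transcribed genes, H3K27me3 in Polycomb-repressed chromatin and H3K9me3 in heterochromatin.

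Some libraries stood apart before any comparison. The H3K4me3 replicate 1 library, which is MLL-named, held 10637 narrow peaks that covered 3.18 Mb, against 27 Mb or more in the others of that mark. The MLL-named H3K27ac libraries covered 20.0 and 22.1 Mb and the RAS-named ones 115.6 and 113.3 Mb, so that H3K27ac lists also differed in width between the names. The H3K27me3 replicate 3 library covered 102.5 Mb against 10.8 to 32.5 Mb. H3K27me3 lists also differed by name, with 10.8 and 23.7 Mb in the MLL-named against 102.5 and 32.5 Mb in the RAS-named libraries. Their median peak widths were 412 and 337 bp against 1487 and 455 bp, without overlap in either measure. For H3K79me2 the widths went the other way, at 2596 and 2773 bp against 1669 and 1100 bp. For H3K4me3 and H3K9me3 the pairs overlapped in both measures. No read counts come with the lists, so sequencing depth is unknown, and its part in any difference below was not tested. With 2 libraries against 2 an exact permutation test cannot give a p below 0.333, so no test was made between the names. Values are given per library, with a statement of whether the pairs overlap. The labelled tissue was not checked against marker genes, because no annotation of the build of the files was used here.

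The MLL-named libraries held fewer and narrower H3K4me1 peaks. Replicates 1 and 2 had 49595 and 81432 peaks, and replicates 3 and 4 had 96068 and 93258. The pairs did not overlap, and the RAS-named geometric mean was 1.49-fold higher (log2 MLL over RAS -0.57, SD within names 0.36). Fewer cells with the mark, less of it per cell and a difference in depth or peak calling cannot be told apart in these lists of whole tissue. Replicate 1 was the low one: it lay farther from replicate 2 than replicate 2 lay from either RAS-named library. Among peaks with a score of at least 100 the pairs were farther apart, with 12595 and 23129 peaks against 36396 and 41534 (log2 -1.19). The score is the authors' own value per peak, and its smallest value in each list was about 50. Whether a score of 100 means the same in each of these lists of unknown depth was not tested.

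Covered length, the bases under at least 1 peak, differed more than peak number. It was 15.5 and 25.0 Mb in the MLL-named libraries and 46.8 and 55.6 Mb in the RAS-named ones, 2.59-fold higher in the latter (log2 -1.37, SD within names 0.36), without overlap. The median peak width was 253 and 232 bp against 347 and 426 bp, a 1.59-fold difference (log2 -0.67, SD within names 0.16). Here the order of replicates 1 and 2 was the reverse of that for peak number, and the pairs again did not overlap.

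The difference was largest, of these 4 measures, for wide peaks. Peaks of 1 kb or more numbered 721 and 1670 in the MLL-named libraries against 7622 and 10996, an 8.34-fold difference (log2 -3.06, SD within names 0.66). They made up 1.45% and 2.05% of the MLL-named lists and 7.93% and 11.8% of the RAS-named lists. The longest H3K4me1 peak of replicate 4 spanned 27329 bp on chromosome 15, from 77628210 to 77655538. That of replicate 3 spanned 11603 bp on chromosome 1, from 74070312 to 74081914. The longest peaks of replicates 1 and 2 were 4377 bp on chromosome 19 (46581160 to 46585536) and 5590 bp on chromosome 11 (117852391 to 117857980). Positions are counted from 1 in mm9, the build in the submitters' processing notes.

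**Figure D1:**
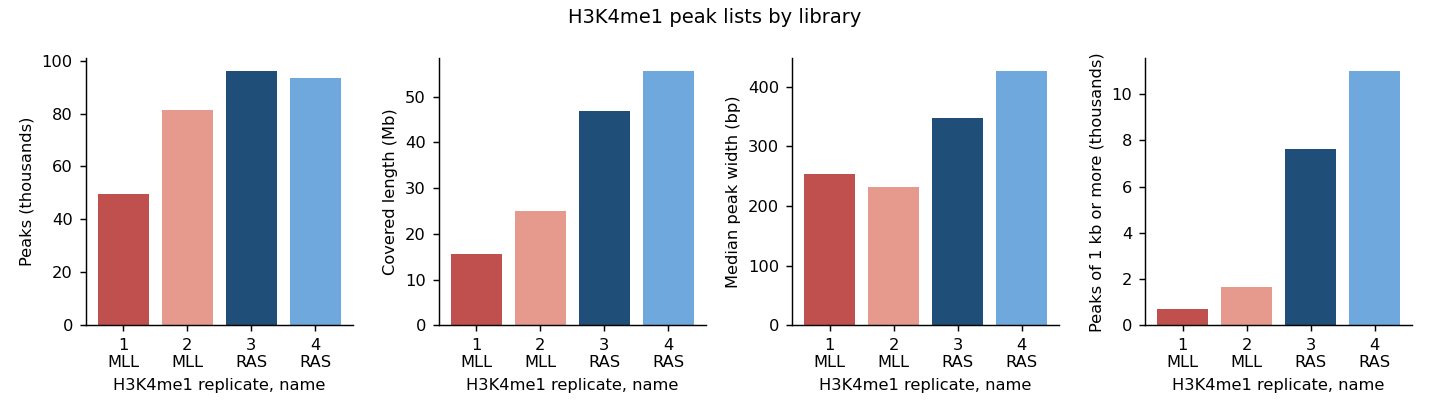
Number of H3K4me1 peaks, covered length, median peak width and number of peaks of 1 kb or more in each of the 4 libraries; bars are single libraries, without error bars, red for MLL-named and blue for RAS-named. Both RAS-named bars stand above both MLL-named bars in each panel, from 96068 and 93258 against 49595 and 81432 peaks to 7622 and 10996 against 721 and 1670 peaks of 1 kb or more.

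Similarity between lists did not follow the names throughout. The Jaccard index, the bases shared by 2 lists divided by the bases in either, was 0.344 for the RAS-named pair and 0.247 for the MLL-named pair. Across the names it was 0.253 for replicates 2 and 3, 0.208 for replicates 2 and 4, 0.177 for replicates 1 and 3 and 0.142 for replicates 1 and 4. Replicate 2 was thus about as close to replicate 3 as to replicate 1. Of the peaks of replicate 1, 59.4% shared a base with replicate 2, 63.9% with replicate 3 and 58.5% with replicate 4.

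The best-scored peaks of one name were looked for in the lists of the other. The chance of being found grows with the length of the lists searched, and the RAS-named lists are longer, so the shares are also given for lists of an equal number of peaks. The peaks of each list were split by score into 10 classes of equal size. In replicate 1, 136 of the 4959 peaks of the best-scored class (2.74%) were in neither RAS-named list. In replicate 2 the count was 174 of 8143 (2.14%). In replicate 3, 1122 of 9606 such peaks (11.7%) were in neither MLL-named list. In replicate 4, 2141 of 9325 (23%) were in neither. With each list limited to its 49595 best-scored peaks, an alternative chosen after these values were seen, the 4959 best peaks were in neither list of the other name in 6.69% and 3.69% of cases in replicates 1 and 2 and in 9.54% and 21.1% in replicates 3 and 4. The pairs still did not overlap but lay closer together. In the full lists, the best-scored class was missing from the other library of the same name in 4.34% and 14.4% of MLL-named peaks and in 4.20% and 7.44% of RAS-named peaks, and replicate 1, the list searched for replicate 2, is the shortest. With lists of an equal number of peaks the shares were 7.68% and 8.53%, and 5.38% and 10%. In the lowest-scored class, 43.5% and 45.7% of MLL-named peaks and 72.9% and 75.0% of RAS-named peaks were in neither list of the other name.

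**Figure D2:**
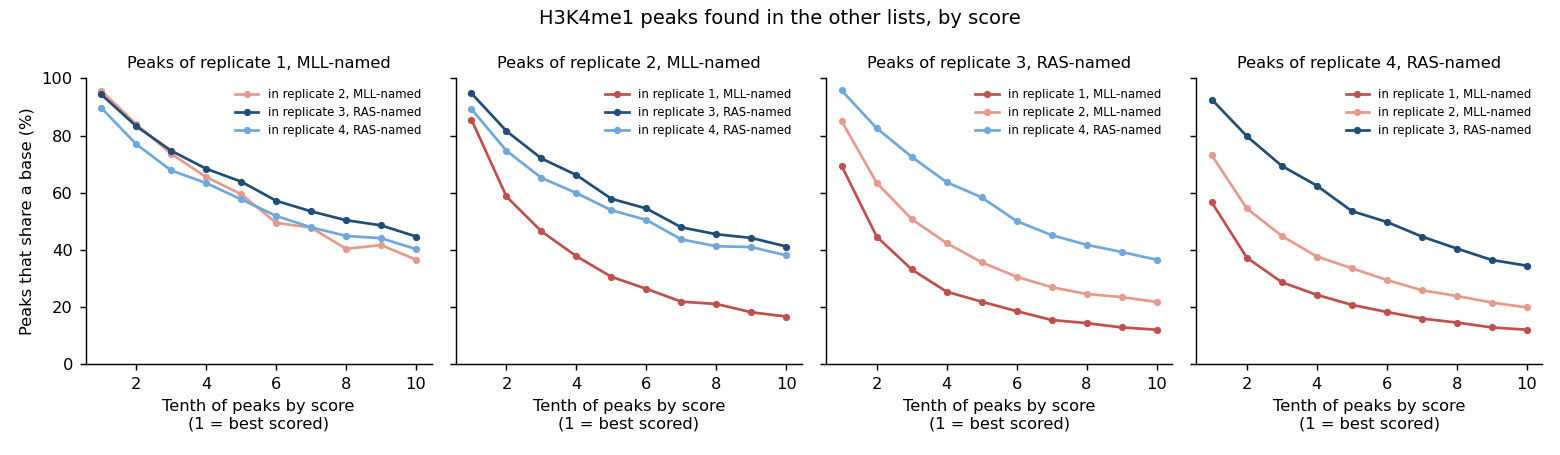
Percent of the H3K4me1 peaks of one library (panel) that share a base with a peak of each other library (line), by class of score, 1 being the best scored. For replicates 3 and 4 the line of the other RAS-named library is highest and that of replicate 1 lowest, with 69.4% and 56.6% of their best-scored class found in replicate 1.

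The 4 lists were merged into 146706 H3K4me1 regions that covered 86.5 Mb, and 88227 of them (60.1%) came from 1 library alone. Regions in both RAS-named and neither MLL-named library, called RAS-only below, numbered 15605, which was 10.6% of all regions, and covered 12.3 Mb. The reverse, MLL-only, numbered 2668, or 1.82%, and covered 1.09 Mb. Regions in all 4 libraries numbered 13259, or 9.04%, and covered 25.1 Mb. RAS-only regions were 5.85 times as many as MLL-only regions. The RAS-named lists are also the longer ones, and with lists of an equal number of peaks the ratio was 2.16. Those lists still differed in covered length (log2 -1.13). Among regions found in 1 library alone the ratio was 2.11, with 59814 from a RAS-named and 28413 from an MLL-named library. Membership in these classes was set by the lists themselves, so these counts carry no test.

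Most regions of both MLL-named libraries were also in a RAS-named list. Of the 20166 regions in both MLL-named libraries, 86.8% were in at least 1 RAS-named library and 13.2% in neither. Of the 39570 regions in both RAS-named libraries, 60.6% were in at least 1 MLL-named library and 39.4% in neither. Many RAS-only regions lay near a peak of the other name: 9854 had no MLL-named peak within 1000 bp and 5302 had none within 5000 bp. MLL-only regions without a RAS-named peak fell to 1115 at 1000 bp and to 642 at 5000 bp.

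Both counts depended on how many lists a region had to be in or out of. With replicate 1 left out, 17962 regions were in both RAS-named libraries and not in replicate 2, while 22581 were in replicate 2 and neither RAS-named library, so the order of the counts was reversed. In the same order, the counts were 24765 and 12991 without replicate 2, 54367 and 6122 without replicate 3, and 51186 and 4377 without replicate 4. In these 4 settings 1 list stood for one name and 2 for the other. Restricting each list to its 49595 best-scored peaks, the size of the smallest list, left 7314 RAS-only regions and raised MLL-only regions to 3379, so that the ratio fell to 2.16. A score of at least 100 left 8606 RAS-only and 670 MLL-only regions. Fewer peaks enter in both of these settings, so the counts are not out of the same merged regions.

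RAS-only regions were longer than MLL-only regions. Each class is merged from peaks of its own name, and the RAS-named peaks were wider, so this order was favoured by the choice. Their median length was 643 bp, their longest was 6107 bp and 3415 of them (21.9%) reached 1 kb. MLL-only regions had a median of 368 bp and a longest of 2383 bp, and 31 (1.16%) reached 1 kb. Regions in all 4 libraries had a median of 1467 bp, and 73.6% reached 1 kb. Over all regions the median was 363 bp, close to that of MLL-only regions, and 13.3% reached 1 kb. Within 5 kb of a region in all 4 libraries lay 28.3% of RAS-only and 35.3% of MLL-only regions, against 28.3% of the regions of 1 MLL-named library alone and 23.7% of those of 1 RAS-named library alone.

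The 10 longest RAS-only regions were between 5005 and 6107 bp, and 5 of them were on chromosome 15. The longest, on chromosome 15 from 78241751 to 78247857, was covered over all 6107 bp in replicate 4 and over 358 bp in replicate 3, and 3 H3K27ac libraries had a peak there. The next, on chromosome 12 from 106091180 to 106096690, was covered over 3961 bp in replicate 3 and 5501 bp in replicate 4, with a peak in 3 H3K27ac and all 4 H3K79me2 libraries. A region on chromosome 6 from 94111980 to 94117096 was covered over 3497 and 4708 bp and had a peak in all 4 H3K27ac libraries. Each of the 10 had a peak in 2 to 4 H3K27ac libraries and none had an H3K27me3 peak. An H3K9me3 peak in 1 library lay on 8 of the 10, and H3K9me3 overlapped at most 3.64% of all RAS-only regions in a library. The 10 were chosen for their length, which favours an overlap of 1 base, so these shares are not comparable. Of the 10, 1 (chromosome 15, 74546034 to 74551530) had H3K4me3, in 3 libraries. On chromosome 15 the length came mainly from replicate 4: replicate 3 covered 358 to 2237 bp of these 5 regions.

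The 10 longest MLL-only regions were between 1165 and 2383 bp. The longest, on chromosome 19 from 37770755 to 37773137, was covered over 1658 bp in replicate 1 and 1621 bp in replicate 2. It had a peak in all 4 H3K27me3 libraries, in 2 H3K4me3 libraries and in no H3K27ac library. The region on chromosome 5 from 58108452 to 58110140 had a peak in all 4 H3K27me3 and all 4 H3K4me3 libraries. In all, 6 of the 10 had H3K27me3 in 4 libraries together with H3K4me3 in 2 to 4, and none of these 6 had H3K27ac. This was not typical of the class: H3K4me3 and H3K27me3 were each present in at least 3 libraries at 2.44% of MLL-only regions and 0.626% of all regions. The combination of H3K4me3 and H3K27me3 is known as bivalent chromatin and is typical of repressed promoters of developmental genes. The other 4 had H3K27ac in 1 or 2 libraries, such as the region on chromosome 5 from 122261309 to 122262781, which had H3K27ac in 1 library and H3K79me2 in 4.

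Among the 538 regions of 5 kb or more that all 4 libraries shared, the 5 with the lowest and the 5 with the highest coverage in the MLL-named relative to the RAS-named libraries were singled out. The length of a merged region is set mainly by the wider RAS-named peaks, so that more bases under RAS-named peaks was favoured by the choice, and no direction is read from these regions. The widest gap was on chromosome 17 from 47576944 to 47584089, where replicates 1 and 2 covered 176 and 359 bp and replicates 3 and 4 covered 7076 and 6694 bp, a 25.7-fold difference. On chromosome 18 from 82677141 to 82692910 they covered 473 and 715 bp against 13571 and 15302 bp, a 24.3-fold difference. Both regions had H3K27ac and H3K79me2 in all 4 libraries of those marks and no H3K4me3. At the other end, the region on chromosome 11 from 60591641 to 60596868 was covered over 4541 and 4775 bp against 4757 and 3738 bp, 1.10-fold higher in the MLL-named libraries. This region had H3K4me3 in 4 libraries. H3K4me3 in at least 3 libraries was found at 135 of the 538 regions (25.1%), at all 5 regions of this end and at 1 of the 5 with the widest gap (chromosome 12, 8781874 to 8787484). Sets of 5 are too small to read a difference from.

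The other marks were read from their own lists, which played no part in choosing the regions. An overlap was 1 shared base, and the percent of regions overlapped was compared between RAS-only and MLL-only regions within each library of the other mark. H3K27ac overlapped 19.3% and 15.6% of RAS-only regions in its MLL-named libraries and 68.6% and 70.1% in its RAS-named libraries. It overlapped 18.3% and 23.1% of MLL-only regions in the MLL-named and 40.3% and 31.5% in the RAS-named libraries. Over all H3K4me1 regions the values were 17.1% and 19.5%, and 50.5% and 50.1%. Thus in the RAS-named H3K27ac libraries RAS-only regions lay above all regions and MLL-only regions below them, while in the MLL-named libraries RAS-only regions lay above all regions in replicate 1 and below them in replicate 2, and MLL-only regions lay above them in both.

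The mean difference for H3K27ac was 15.1 ± 21.9 points (SD, n = 4 libraries; RAS-only minus MLL-only), with 1.01, -7.45, 28.2 and 38.6 points in replicates 1 to 4. The 4 values split by name, so the SD includes the gap between the names, and the RAS-named H3K27ac libraries carry the replicate numbers of the H3K4me1 lists that define RAS-only regions. Over all 4, the exact two-sided sign-flip p was 0.375 (adjusted by Benjamini-Hochberg over 5 marks, 0.375), and this p does not show that the classes were alike. It was 7.27 points without H3K27ac replicate 4 and 22.6 without H3K27ac replicate 2. It also depended on the H3K4me1 lists that made the classes: without H3K4me1 replicate 3 or 4 it was -1.07 and 1.7 points, and without H3K4me1 replicate 1 or 2 it was 22.6 and 23.4 points. With 4 libraries this test cannot give a p below 0.125, so no mark could pass 0.05. RAS-only regions are longer, which favours an overlap of 1 base. By the midpoint of the region, the MLL-named H3K27ac libraries overlapped 8.62% and 7.19% of RAS-only against 9.6% and 13.3% of MLL-only regions. The RAS-named H3K27ac libraries overlapped 64.8% and 66.7% against 35.9% and 27.1%. The mean difference was then 15.4 points, with the names in opposite directions.

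H3K4me3, the promoter mark, was rarer on RAS-only regions in 4 of 4 libraries. It overlapped 0.493%, 4.49%, 4.70% and 5.17% of RAS-only regions in replicates 1 to 4, against 3.94%, 32.5%, 29.9% and 29.8% of MLL-only regions and 1.71%, 13.1%, 12.3% and 13.1% of all regions. RAS-only regions lay below all regions and MLL-only regions above them in each library. The mean difference was -20.3 ± 11.3 points (SD, n = 4; exact sign-flip p = 0.125, adjusted 0.208), and replicate 1, with its short list, was the small one. Without that library it was -25.9 points, and with H3K4me1 peaks of a score of at least 100 it was -36.4 points. With classes made without H3K4me1 replicate 1 or 2 it was -8.64 and -9.85 points. On regions in all 4 libraries H3K4me3 overlapped 6.31%, 32.0%, 33.0% and 33.0%. Shared regions are longer, which favours an overlap of 1 base. When the midpoint of the region had to lie in the H3K4me3 peak, the shared values in replicates 2 to 4 were 19.1%, 18.1% and 22.5%, below the MLL-only values of 29.1%, 24.4% and 26.4%.

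H3K79me2, found along transcribed genes, overlapped 32.3%, 33.3%, 36.3% and 34.8% of RAS-only regions and 55.1%, 53.6%, 53.7% and 47.1% of MLL-only regions. All regions lay between, at 40.0% to 43.2%, and regions in all 4 libraries were highest, at 68.1% to 74.5%. The mean difference was -18.2 ± 4.54 points (SD, n = 4), in the same direction in 4 of 4 libraries, with an exact sign-flip p of 0.125 (adjusted 0.208). With classes made without H3K4me1 replicate 1, 2 or 3 it was -7.51, -4.72 and -32.1 points. Without replicate 2 the 4 libraries no longer all went the same way (unadjusted exact sign-flip p = 0.25).

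H3K27me3 overlapped 0.487%, 0.846%, 2.10% and 0.718% of RAS-only regions against 7.65%, 9.26%, 15.6% and 10.3% of MLL-only regions. Over all regions it overlapped 1.60%, 2.31%, 5.17% and 2.56%, so MLL-only regions stood above, and RAS-only regions below, all regions in each of 4 libraries. The mean difference was -9.65 ± 2.72 points (SD, n = 4; exact sign-flip p = 0.125, adjusted 0.208). With classes made without H3K4me1 replicate 1, 2 or 3 it was -5.04, -6.24 and -5.44 points.

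H3K9me3 was rare on all classes in replicates 1 to 3, at most 0.0769% of RAS-only and 0.075% of MLL-only regions. Replicate 4 overlapped 3.64% of RAS-only, 0.637% of MLL-only and 15.1% of shared regions, against 2.76% of all regions. The mean difference of 0.769 ± 1.49 points (SD, n = 4; exact sign-flip p = 0.375, adjusted 0.375) rested on that library and was 0.0245 points without it. It was 2.12 points with H3K4me1 peaks of a score of at least 100, 1.49 with the best-scored peaks and 0.296 by the midpoint of the region (unadjusted exact sign-flip p of 0.125, 0.25 and 0.125).

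**Figure D3:**
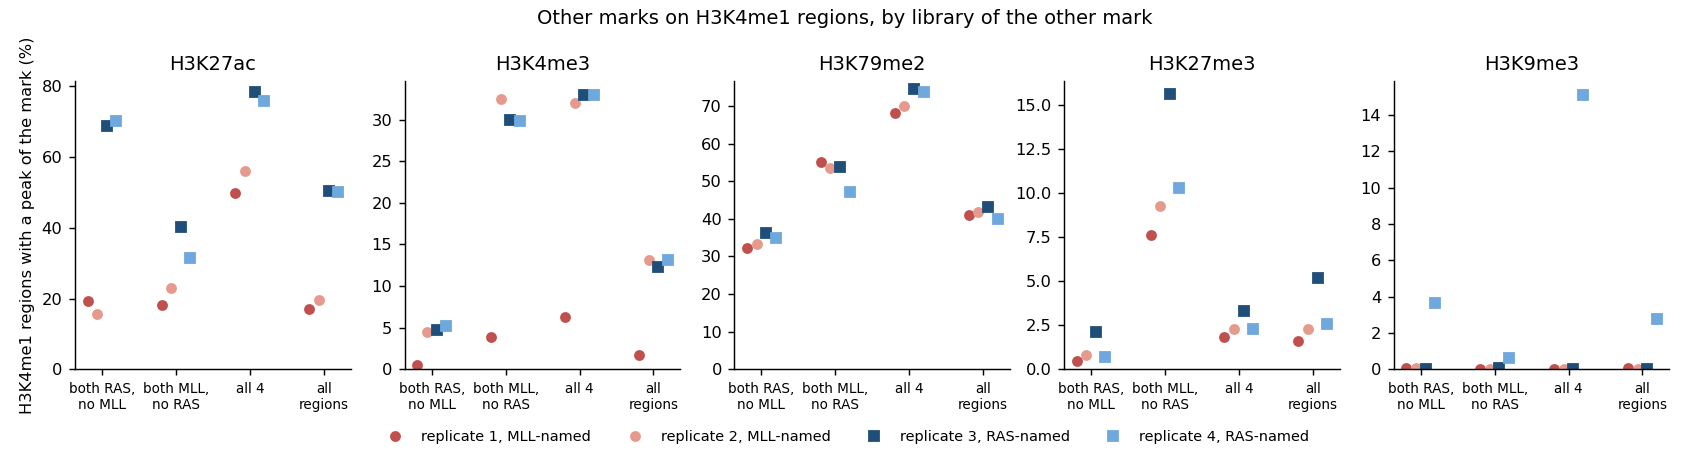
Percent of H3K4me1 regions that share a base with a peak of each other mark, for RAS-only, MLL-only and shared regions and for all regions; each point is 1 library of the other mark, circles MLL-named and squares RAS-named, and each panel has its own scale. H3K4me3, H3K79me2 and H3K27me3 points stand higher on MLL-only than on RAS-only regions in each library, and the RAS-named H3K27ac points reach 68.6% and 70.1% on RAS-only regions.

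Combinations of marks were also counted in each class. H3K27ac in both RAS-named libraries with no H3K4me3 peak in any library was found at 8701 RAS-only regions (55.8%) and 291 MLL-only regions (10.9%). It was found at 41.7% of shared regions and 31.6% of all regions. An active enhancer can have this pattern, but distance to H3K4me3 was not part of it. The pattern was scored in the RAS-named H3K27ac libraries alone, which carry the replicate numbers of the lists that define RAS-only regions. RAS-only regions were thus favoured by the choice, and no matching count was made with the MLL-named H3K27ac libraries. H3K27ac in both RAS-named and neither MLL-named library was found at 38.4% of RAS-only, 12.4% of MLL-only, 12.6% of shared and 23% of all regions. The reverse, H3K27ac in both MLL-named and neither RAS-named library, was found at 28 RAS-only and 17 MLL-only regions (0.179% and 0.637%), against 0.228% of all regions. No H3K27ac peak in any library lay on 16.6% of RAS-only and 40.2% of MLL-only regions, against 31.9% of all regions. The part that the larger covered length of the RAS-named H3K27ac lists has in these shares was not tested.

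H3K4me3 sites were rarer among RAS-only regions than among MLL-only or shared regions. H3K4me3 in at least 3 libraries was found at 661 MLL-only regions (24.8%) and 508 RAS-only regions (3.26%), against 28.8% of shared and 10.1% of all regions. Within 2 kb of an H3K4me3 region lay 40.4% of MLL-only, 10.8% of RAS-only, 39.3% of shared and 20.9% of all regions. H3K4me3 and H3K79me2 were each present in at least 3 libraries, as at transcribed promoters, at 359 MLL-only regions (13.5%) and 243 RAS-only regions (1.56%), against 23.9% of shared and 5.91% of all regions. H3K4me3 and H3K27me3 together, the bivalent pattern, were found at 65 MLL-only regions (2.44%) and 27 RAS-only regions (0.173%), against 1.42% of shared and 0.626% of all regions. H3K27me3 in at least 3 libraries was found at 230 MLL-only regions (8.62%) and 84 RAS-only regions (0.538%), against 2.05% of shared and 1.96% of all regions. A share of 7.38% of RAS-only and 6.97% of MLL-only regions had no peak of any other mark, and both lay below the 12.8% of all regions.

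The regions of H3K4me3 present in at least 3 of its 4 libraries numbered 21820, with a median length of 860 bp. H3K4me1 peaks within 2 kb of them numbered 16947 and 24081 in the MLL-named libraries and 21880 and 16251 in the RAS-named ones. These pairs overlapped (log2 MLL over RAS 0.10, SD within names 0.33), and the direction changed with replicate 2 or 4 left out (-0.15 and -0.12) and with a score of at least 100 (-0.27). Peaks farther away numbered 32648 and 57351 against 74188 and 77007, without overlap, and were 1.75-fold more numerous in the RAS-named libraries (log2 -0.80, SD within names 0.41). With a score of at least 100 this was -1.58, and with lists of an equal number of peaks it was -0.24, while peaks within 2 kb were then more numerous in the MLL-named libraries (0.67). The share of peaks within 2 kb was 34.2% and 29.6% against 22.8% and 17.4%. With each list limited to its 49595 best-scored peaks it was 34.2% and 32.9% against 24.7% and 17.9%, so the shares remained apart with lists of an equal number of peaks.

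The same was seen as a profile around these regions. At the centre H3K4me1 peaks lay over 9.32% and 13.3% of H3K4me3 regions in the MLL-named and 14.6% and 11.4% in the RAS-named libraries, which overlapped (log2 -0.22, SD within names 0.31). At 1000 bp the values were 9.78% and 13.8% against 16.8% and 13.2%, again with overlap. At 5000 bp they were 2.79% and 4.50% against 7.68% and 8.31%, a 2.25-fold difference without overlap (log2 -1.17, SD within names 0.35). All 4 libraries had the shape known for H3K4me1 at promoters, with a dip at the centre and a shoulder on either side.

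H3K4me1 inside H3K27ac domains was lower in the MLL-named libraries, by an amount that depended on the domains. In domains of all 4 H3K27ac libraries it was smaller than the difference in covered length over the whole genome (log2 -1.37). In domains of both RAS-named H3K27ac libraries it was slightly larger than that, from -1.38 to -1.57. Domains were stretches covered by H3K27ac peaks, with gaps of up to 1 kb closed, and very long ones are often called super-enhancers and lie near genes that define a cell's identity. Domains covered in all 4 H3K27ac libraries are limited by the MLL-named lists, which cover 20.0 and 22.1 Mb, and only 11 of them reached 10 kb. In these 11, H3K4me1 peaks covered 45.7% and 55.1% of bases in the MLL-named and 75.1% and 77.3% in the RAS-named libraries, which was 1.52-fold (log2 -0.60, SD within names 0.14). The shorter classes chosen in that way, under 2 kb, 2 to 5 kb and 5 to 10 kb, gave log2 values of -0.68, -0.59 and -0.44, all without overlap.

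Domains covered in both RAS-named H3K27ac libraries, whatever the MLL-named ones held, were more numerous and gave larger differences. They were chosen by the libraries of the other name, whose H3K27ac lists cover 115.6 and 113.3 Mb. Neither choice is free of the names, and the values for both are descriptions. In the 1415 such domains of 10 kb and over, H3K4me1 covered 12.5% and 19% of bases in the MLL-named and 40.7% and 48.2% in the RAS-named libraries (2.88-fold, log2 -1.53, SD within names 0.33). In the 11923 domains under 2 kb the values were 6.36% and 10.4% against 20.1% and 22.2% (log2 -1.38). In the 9892 domains of 2 to 5 kb and the 3192 of 5 to 10 kb the log2 values were -1.43 and -1.57. Coverage rose with domain length within each library, and the size of the rise from under 2 kb to 5 to 10 kb was 0.62 and 0.58 on the log2 scale in the MLL-named against 0.75 and 0.83 in the RAS-named libraries. In domains of all 4 H3K27ac libraries the order was the other way for that class, 1.05 and 0.98 against 0.77 and 0.78. From under 2 kb to 10 kb and over, the rise was 0.97 and 0.87 against 1.02 and 1.12 in RAS-named domains, and in domains of all 4 libraries the pairs overlapped, at 1.23 and 1.11 against 1.07 and 1.11. No dependence of the difference on domain length held for both choices of domains.

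Most long domains held a peak in each library. Of the RAS-named domains of 10 kb and over, 78.4% and 90.1% held at least 1 H3K4me1 peak in the MLL-named libraries and 99.4% and 99.5% in the RAS-named ones, which is near the ceiling of this measure. Of the domains under 2 kb, 24% and 36.1% did against 49.5% and 45.8%. RAS-only regions lay in RAS-named domains of 10 kb and over in 2672 cases (17.1%) and MLL-only regions in 101 cases (3.79%), against 9.45% of all regions and 18.0% of shared regions.

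**Figure D4:**
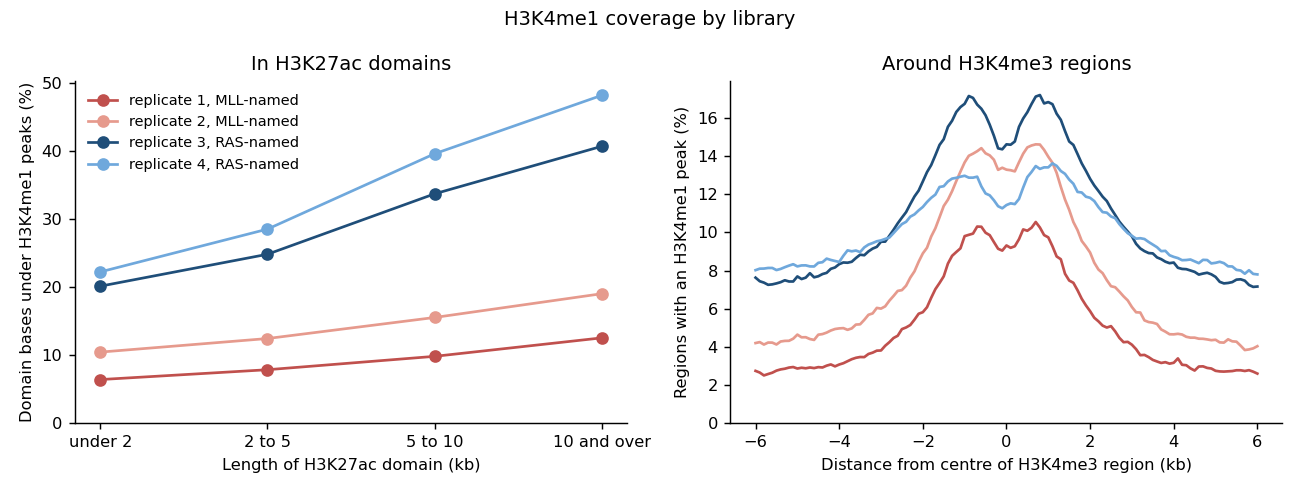
Left, percent of the bases of H3K27ac domains covered in both RAS-named H3K27ac libraries that lie under H3K4me1 peaks by domain length, each line 1 H3K4me1 library; right, percent of H3K4me3 regions with an H3K4me1 peak at each distance from the region's centre. In domains of 10 kb and over the lines end at 12.5%, 19%, 40.7% and 48.2%, while at the centre of H3K4me3 regions they lie between 9.32% and 14.6% with the names interleaved.

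Read the other way, the H3K4me1 bases of the MLL-named libraries lay more often in regions of 4 of the 5 other marks and less often in those of H3K9me3. Regions of each mark were taken from at least 3 of its 4 libraries. H3K4me3 regions held 15.4% and 13.2% of the H3K4me1 bases of the MLL-named and 7.72% and 4.92% of those of the RAS-named libraries. H3K27me3 regions held 2.74% and 3.06% against 0.926% and 0.866%, and H3K79me2 regions held 61.8% and 58.2% against 49.8% and 42.4%. H3K27ac regions held 26.0% and 22.6% against 19.2% and 16.9%. For H3K9me3 regions the shares were 0.00787% and 0.00477% against 0.0261% and 0.0278%. None of these pairs overlapped, and each share was taken of a covered length that was itself lower in the MLL-named libraries.

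The share of each mark's own bases under H3K4me1 behaved otherwise. For H3K27ac regions it was 17.9% and 25.1% in the MLL-named against 40.1% and 41.7% in the RAS-named libraries, and for H3K79me2 regions 7.91% and 12.0% against 19.2% and 19.4%. Neither pair overlapped. For H3K4me3 regions it was 10.3% and 14.2% against 15.6% and 11.8%, and for H3K27me3 regions 2.57% and 4.61% against 2.62% and 2.91%, and both pairs overlapped. H3K9me3 regions, 2.0 Mb in all, were covered over 0.0611% and 0.0596% against 0.613% and 0.774%. This was the widest separation of the 5 marks, 11.4-fold without overlap, though on very small shares. The H3K4me1 coverage of H3K4me3 and H3K27me3 regions was thus not separated by name, while that of H3K27ac, H3K79me2 and H3K9me3 regions was.

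Chromosomes did not contribute alike. RAS-only regions were 16.8% of the regions on chromosome 18, 14.5% on chromosome 6, 14.4% on chromosome 12 and 13.9% on chromosome 8, against 7.76% on chromosome 5 and 2.03% on chromosome X. Apart from chromosome Y, with 3 regions in all, MLL-only regions were between 0.775% of regions on chromosome 16 and 2.89% on chromosome 5. Chromosome X held 88, 258, 189 and 97 H3K4me1 peaks in replicates 1 to 4, at most 0.317% of a list.

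The share of a library's H3K4me1 peaks on a chromosome also differed between libraries of the same name. Chromosome 15 held 4.66%, 4.42%, 3.93% and 6.31% of peaks in replicates 1 to 4, so that the RAS-named libraries were the lowest and the highest. Chromosome 16 held 3.23%, 3.58%, 4.83% and 3.45%, with replicate 3 high, and chromosome 6 held 5.00%, 5.40%, 6.28% and 7.65%. For 2 of the 5 other marks, H3K27me3 and H3K9me3, shares moved in the same direction as those of H3K4me1 across chromosomes in each replicate number. For H3K9me3, chromosome 15 held 2.60%, 2.64%, 1.40% and 9.36% of peaks, and for H3K27me3, chromosome 16 held 1.81%, 1.93%, 3.52% and 2.10%. Across the 19 autosomes, the log2 deviations of H3K4me1 and H3K27me3 shares from the mean of 4 libraries correlated at 0.72, 0.74, 0.81 and 0.88 in replicates 1 to 4. For H3K9me3 the values were 0.47, 0.80, 0.78 and 0.86, and for H3K79me2 0.14, -0.33, 0.06 and 0.00. For the other two marks the sign differed between replicates, with 0.67, -0.25, 0.56 and 0.39 for H3K27ac and -0.49, 0.72, -0.44 and 0.53 for H3K4me3. These points share the tumour tissue of a replicate number, as far as the numbers mark the same tissue, and are not independent.

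On the 11 autosomes with the most even H3K4me1 shares, chosen after these values were seen, 8909 RAS-only and 1837 MLL-only regions were counted. These counts are out of the fewer regions on those autosomes and cannot be set beside the counts over all chromosomes. The class differences of the 5 marks there were 14.4 points for H3K27ac, -21.8 for H3K4me3, -18.0 for H3K79me2, -9.17 for H3K27me3 and 0.752 for H3K9me3, close to those over all chromosomes.

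**Figure D5:**
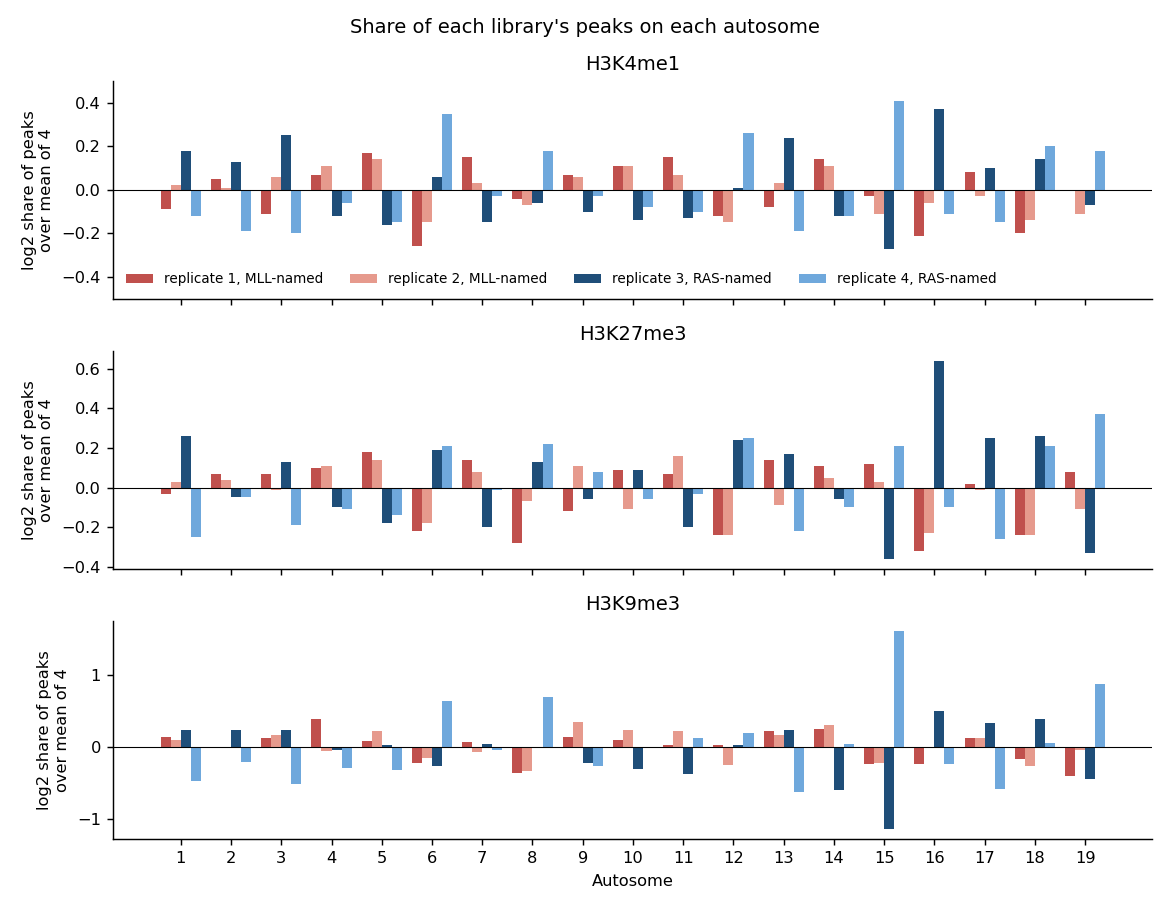
Share of each library's peaks on each autosome as log2 of its ratio to the mean share of the 4 libraries of that mark, for H3K4me1, H3K27me3 and H3K9me3; each bar is 1 library and each panel has its own scale. Replicate 4 is high on chromosome 15 for all 3 marks and replicate 3 is high on chromosome 16.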

How the data were processed

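Per the submitters' processing notes, CASAVA 1.7, Bowtie, MACS and deepTools were used with the mm9 build; their settings are not given in the sources used here. Each deposited file lists 1 library's peaks with the authors' score. It served here to rank peaks within a list and, at a fixed threshold of 100, to filter every list. Libraries were grouped by the mark and replicate number in their titles, and MLL or RAS was taken from the submitted names. The members, measures and lists were chosen with earlier results of these data known. Peaks were merged into regions where they shared 1 base, and a library was present in a region where it had a peak. Python 3.11.15 with NumPy 2.4.6 and Matplotlib 3.10.9 was used, and interval steps and the sign-flip test (16 sign patterns) were tested on simulated data. Log2 ratios are of geometric means, and the SD within names pools both pairs. The named regions are the 10 longest of each class, and, of shared regions of 5 kb or more, the 5 with the lowest and the 5 with the highest MLL-named relative to RAS-named coverage. Further regions and peaks were named as the longest of a list. Gene names and sequences were not used, because the available tables are of another build. Depth is unknown, so no counting intervals were given. Alternatives were score thresholds, equal list lengths, merging, autosomes, other overlap rules, other domains and each library left out.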

Additional observations from a re-analysis of the deposited data

Results flagged for a closer look

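In 6 of the 25 groups of 4 libraries examined, 1 library lay far from the other 3 by Dixon's criterion, which chance meets in about 1 of 20 groups. The groups share libraries and regions and are not independent. H3K4me3 replicate 1 was low on 3 region classes, with an overlap of 0.493% of RAS-only, 3.94% of MLL-only and 6.31% of shared regions. H3K9me3 replicate 4 was high on the same classes, with an overlap of 3.64% of RAS-only, 0.637% of MLL-only and 15.1% of shared regions.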

How the results depend on the processing

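No paired analysis was possible because the MLL-named libraries carry replicate numbers 1 and 2 and the RAS-named ones 3 and 4, so they share no number. The 18 results with a sign were recomputed in 166 alternatives, of which 160 kept their direction. The 6 that did not were the H3K27ac class difference (-1.07 points with classes made without H3K4me1 replicate 3), H3K4me1 at the centre of H3K4me3 regions (log2 0.10 with the best-scored peaks, 0.04 without replicate 1) and peaks within 2 kb of H3K4me3 regions (-0.27 with a score of at least 100, -0.15 without replicate 2, -0.12 without replicate 4). RAS-only regions outnumbered MLL-only regions in 10 of 11 settings, and without replicate 1 the counts were 17962 and 22581. With as many best-scored peaks in each list as in the smallest, peak number has no value by construction; median width was -1.06, RAS-only regions 7314, MLL-only regions 3379, peaks within 2 kb of H3K4me3 regions 0.67 and farther peaks -0.24. With a score of at least 100, peak number was -1.19, covered length -1.86, RAS-only regions 8606, MLL-only regions 670, H3K27ac domains from the shortest class to the longest -1.88, -1.88, -2.04 and -1.94, H3K4me3 regions at 5000 bp -1.55, farther peaks -1.58 and the share within 2 kb 0.91. With peaks closer than 1 kb merged, median width was -1.05, RAS-only regions 7218 and MLL-only regions 1661. With no peak of the other name within 1 kb, the counts were 9854 and 1115. In domains of all 4 H3K27ac libraries the values were -0.68, -0.59, -0.44 and -0.60. On chromosomes with even shares, an alternative chosen after seeing the data, RAS-only regions were 8909. Fewer peaks or regions enter by construction in the score, merging, distance and chromosome alternatives; the cause of the other shifts was not tested.

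With each H3K4me1 library left out in turn, peak number ranged from -0.93 to -0.22, covered length from -1.72 to -1.03 and median width from -0.81 to -0.52. RAS-only regions ranged from 17962 to 54367 and MLL-only regions from 4377 to 22581. The domain values ranged from -1.73 to -1.03, -1.77 to -1.10, -1.90 to -1.24 and -1.83 to -1.23 from the shortest class to the longest. At H3K4me3 regions the ranges were -0.47 to 0.04 at the centre, -0.61 to -0.11 at 1000 bp and -1.52 to -0.83 at 5000 bp. Peaks within 2 kb ranged from -0.15 to 0.35, farther peaks from -1.21 to -0.40 and the share from 0.48 to 0.87. With fixed classes and each library of the other mark left out, the class differences ranged from 7.27 to 22.6 points for H3K27ac, -25.9 to -17.8 for H3K4me3, -20.2 to -16.7 for H3K79me2, -10.5 to -8.37 for H3K27me3 and 0.0245 to 1.04 for H3K9me3. With classes made without each H3K4me1 library, an alternative chosen after seeing the data, they ranged from -1.07 to 23.4, -25.5 to -8.64, -32.1 to -4.72, -7.82 to -5.04 and 0.186 to 1.05 in the same order.

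The comparison rests on 2 libraries a name, on names that the labels do not repeat, and on lists called separately in each library without known depth.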
